A study of Mus musculus with 18 samples.

Results

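Eukaryotic initiation factors (eIFs) are the proteins that bring a ribosome to the start codon of an mRNA. The mRNAs of these factors were followed in single mouse oocytes, taking all genes whose GENCODE mouse symbol begins with Eif and a digit from 1 to 6, without symbols that mark a pseudogene. The rule found 56 of the 47069 genes in the deposited tables, 55 protein-coding genes and the lincRNA Eif2c5. The rule goes by gene name and uses no measured value.

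Each library held the mRNA of 1 oocyte of a wild-type C57BL/6 mouse, copied by SMART-seq2, a method that reads polyadenylated transcripts over their full length. At 12 months of age (12m) there were oocytes matured in vitro to metaphase II overnight beside MSC (MSC-IVM-MII-12m), oocytes matured in vitro to metaphase II without them (IVM-MII-12m) and germinal vesicle oocytes (GV-12m), which have not resumed meiosis. The same kinds were taken at 6 weeks (MSC-IVM-MII-6wk, IVM-MII-6wk and GV-6wk), which made 6 groups of 3 oocytes and 18 libraries. The labels do not spell out MSC, and they do not say which mouse, litter or culture an oocyte came from. Oocytes were lysed softly and the nucleus was spun to the bottom of the tube, so the libraries come from what stayed in the supernatant. Since no animal is named, each group of 3 oocytes counted as 1 sample: no test was made. The ± values are SDs between the 3 oocytes and say nothing of the spread between mice.

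A capped mRNA is bound by eIF4E, the scaffold eIF4G and the helicase eIF4A. The small ribosomal subunit arrives with eIF1, eIF1A, eIF3, eIF5 and the complex of eIF2, GTP and initiator tRNA. Once the start codon is found, eIF5 triggers hydrolysis of the GTP and eIF5B joins the large subunit. Spent eIF2 is recharged by eIF2B, and stress kinases that phosphorylate eIF2 block that step. A full-grown oocyte is transcriptionally silent, so the proteins it makes during maturation come from mRNAs stored earlier, some of which are masked at the cap and taken up when their poly(A) tails are extended.

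Total counts ran from 1914072 to 9193559 per oocyte, and 8612 to 16036 genes had a count. Every oocyte had counts for 11 or 12 of the 12 oocyte markers, among them zona pellucida genes and Gdf9. The 12 markers summed to 5179 to 55539 CPM. Ddx4 reached at most 11.4 CPM and was at 0 in MSC-IVM-MII-6wk oocyte 3 and IVM-MII-6wk oocytes 2 and 3. CPM are a gene's counts as a share of its library, scaled for composition. Mitochondrial genes took 3.03 to 14.9% of the counts in metaphase II oocytes and 0.917 to 3.70% in GV oocytes. Some libraries stood apart. In GV-12m oocyte 3 the 14 markers of cumulus and granulosa cells summed to 1757 CPM, while the remaining 5 GV oocytes had 69.6 to 232 CPM and metaphase II oocytes at most 80.2 CPM. Most of that sum was Inha (917 CPM) and Gja1 (674 CPM). In the same oocyte 12 of the 14 markers had a count, but Foxl2 was at 0.303 CPM, Cyp11a1 at 0.151 CPM and Amh at 0. Titles begin with 1 of 5 unexplained prefixes. None is shared between the ages, so age and prefix cannot be told apart. Among 6wk metaphase II oocytes, oocyte 1 of each group had the prefix Y01 and the other 4 had Y03. Both Y01 oocytes stood apart, within the members described below and outside them. Mos, the kinase that holds the oocyte at metaphase II, was at 643 CPM in that of MSC-IVM-MII-6wk and 1261 CPM in that of IVM-MII-6wk. The other 10 metaphase II oocytes had at most 12.0 CPM of Mos and GV oocytes 546 to 1973 CPM. The oocyte markers summed to 22267 and 26619 CPM in these Y01 oocytes, against 5179 to 12340 CPM in the other metaphase II oocytes. GV-12m oocyte 3 had 8731 CPM of them and the remaining GV oocytes 28072 to 55539 CPM. The mitochondrial shares of the Y01 oocytes, 3.03 and 3.22%, lay within the range of GV oocytes, while the other metaphase II oocytes had at least 6.04%. Cytosolic ribosomal protein genes, by contrast, summed to 2149 and 1829 CPM in them, against 1897 to 4636 CPM in the other metaphase II oocytes and 9521 to 36191 CPM in GV oocytes. The part of these differences in the results was not tested, and counts without both oocytes stand beside them. Mesenchymal markers summed to at most 14.2 CPM and blood and immune markers to at most 20.8 CPM in any oocyte, and 3 of 11 and 3 of 8 of these markers were at 0 throughout.

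Of the 56 genes, 53 passed the filter on low counts. Eif2c5 and Eif2s3y, the Y-chromosomal copy of an eIF2 subunit, had no count among the 85187330 counts of all libraries, which allows up to 0.0352 CPM for each (3 counts, counting error only). Eif4ebp3 reached at most 0.757 CPM. Per transcript length, the members summed to a similar mean share of the transcriptome in each group. In TPM, the deposited transcript shares corrected for length, all 56 summed to 7220 ± 461 in MSC-IVM-MII-12m, 6694 ± 465 in IVM-MII-12m and 7210 ± 67.8 in GV-12m oocytes. At 6wk the sums were 8135 ± 995 in MSC-IVM-MII-6wk, 7806 ± 847 in IVM-MII-6wk and 7405 ± 526 in GV-6wk oocytes. Single oocytes ran from 6283 to 9104 TPM. In CPM the sums ran from 7133 in GV-12m oocyte 3 to 14329.5 in GV-12m oocyte 1. The makeup differed between the groups. In IVM-MII-12m oocytes the most abundant members were Eif2b1 (1178 TPM), Eif5a (1026 TPM), Eif1b (871 TPM), Eif2s2 (650 TPM) and Eif3i (540 TPM). In GV-12m oocytes they were Eif1b (1110 TPM), Eif3k (602 TPM), Eif5a (556 TPM), Eif6 (509 TPM) and Eif3g (496 TPM).

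The main comparison asked how the members differed between metaphase II and GV oocytes. In IVM-MII-12m against GV-12m oocytes, 24 of the 53 members were at least 2-fold lower, among them most eIF3 subunits, Eif2b4, Eif4e2, Eif4h and Eif6. At least 2-fold higher were 8, among them Eif5, Eif5b, Eif2s2 and Eif4e1b. Of all 12037 genes that passed the filter, 39% were lower by this limit and 16.1% higher, so the members' shares lay near those of all genes. A difference here is that of the group means of log2(CPM + 1), and the limit of 2-fold is a difference of 1 in size. The members' median difference was −0.57, against −0.52 for all genes, and their quartiles lay at −2.76 and 0.63. All IVM-MII oocytes lay on one side of all GV oocytes for 19 of the lower and 7 of the higher members, against 25.5% and 10% of all genes.

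At 6wk, IVM-MII against GV gave 23 lower and 11 higher members, beside 39.3% and 16.7% of all genes, with medians of −0.36 for the members and −0.52 for all genes. The oocytes did not overlap for 21 and 6 of them, against 28.3% and 8.34% of all genes. Both ages gave much the same picture without sharing a library: 21 members were lower at both ages and 7 higher at both, and 50 of 53 had the same sign. Of all 12037 genes, 3558 were lower at both ages and 1141 higher at both, and 78.9% had the same sign. Across the 53 members the differences of the ages correlated with Pearson's r = 0.895 and Spearman's rho = 0.885, against 0.798 and 0.766 across all genes. These describe genes measured in the same libraries, which are not independent points. Only 1 member was past the limit in opposite directions, Eif4g2, described with the scaffolds below.

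Co-cultured oocytes differed from GV oocytes in a like way, and the values share the GV oocytes with those above. In MSC-IVM-MII-12m oocytes 23 members were lower and 10 higher, against 41.7% and 16.7% of all genes, with medians of −0.63 and −0.60. There was no overlap for 19 and 6 of them, against 28% and 9.99% of all genes. In MSC-IVM-MII-6wk oocytes 20 were lower and 13 higher, against 35.2% and 21.4%, with medians of −0.32 and −0.29. There was no overlap for 17 and 9, against 27.3% and 12.3%. CPM are shares of a library's scaled total, so higher or lower does not tell whether the amount of an mRNA in the oocyte differed. The libraries hold polyadenylated transcripts, so differences in poly(A) tails cannot be told apart from differences in amount either. Without GV-12m oocyte 3 IVM-MII-12m had 22 lower and 8 higher members with a median of −0.28, beside 38.2% and 18.4% of all genes with a median of −0.43. MSC-IVM-MII-12m then had 21 and 11 with a median of −0.33, beside 41.2% and 18.9% with a median of −0.54. Without its Y01 oocyte IVM-MII-6wk had 25 lower and 12 higher, beside 44.01% and 14.8% of all genes, and MSC-IVM-MII-6wk had 21 and 15, beside 38.6% and 20.3%.

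Taken within title prefixes that both groups held, IVM-MII-12m minus GV-12m gave 27 lower and 8 higher members, beside 40.8% and 14.5% of all genes, with medians of −1.06 for the members and −0.62 for all genes. For IVM-MII-6wk minus GV-6wk there were 23 and 12, beside 38.1% and 21.3%, with medians of −0.55 and −0.38. MSC-IVM-MII-12m minus GV-12m gave 27 and 8, beside 45.5% and 14.5%, with medians of −1.33 and −0.81. For MSC-IVM-MII-6wk minus GV-6wk there were 20 and 14, beside 34.4% and 24.6%, with medians of −0.18 and −0.17. Prefixes counted equally here. At 12m GV-12m oocyte 1, of prefix O01, dropped out, and GV-12m oocyte 3 weighed more than before. Leaving out GV-12m oocyte 3 instead gave members' medians of −0.28 for IVM-MII-12m and −0.33 for MSC-IVM-MII-12m. At 6wk the Y01 metaphase II oocyte weighed as much as both Y03 oocytes of its group together. The part of this weighting was not tested.

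**Figure D1:**
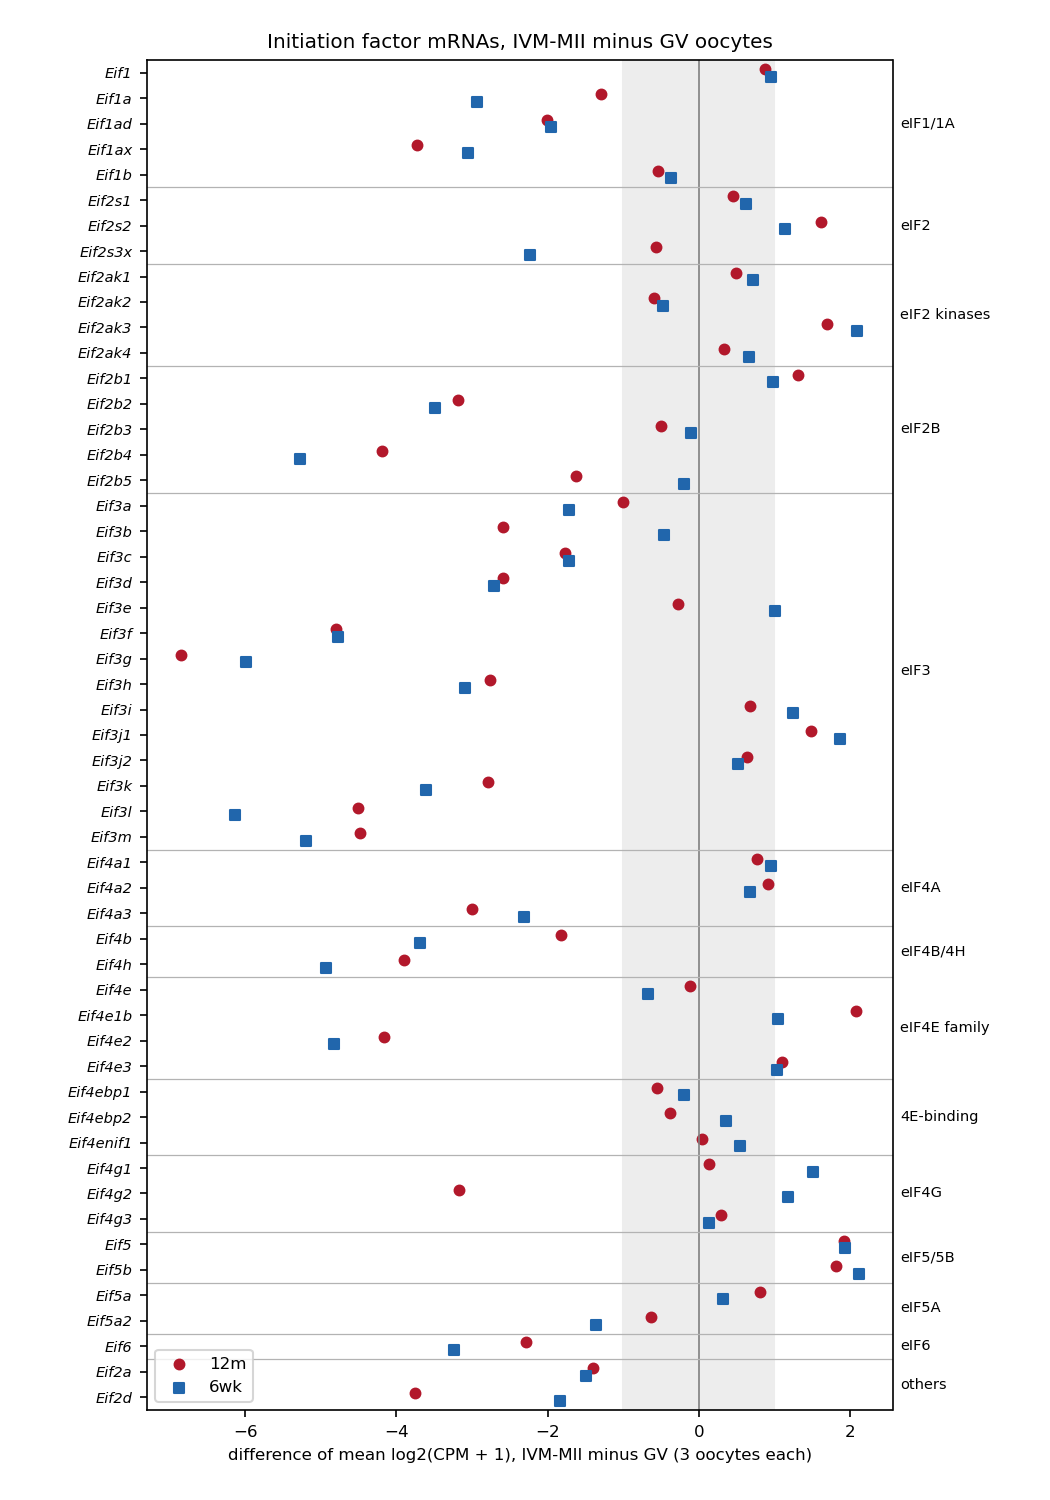
Difference of mean log2(CPM + 1), IVM-MII minus GV oocytes, for the 53 members that passed the filter, ordered by factor; red circles are 12m and blue squares 6wk, and the grey band marks less than 2-fold. Members of one factor lie on both sides of 0, for example Eif3g at −6.85 and −5.99 and Eif3j1 at 1.49 and 1.87.

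Sequence features were looked up because mRNAs of the translation machinery often start with a run of pyrimidines, the TOP motif, and because oocyte mRNAs can carry a cytoplasmic polyadenylation element near the 3′ end. A start was called TOP-like where the first base from the RefSeq start was a C and the next 4 or more were pyrimidines, read on the transcript strand. Of the 44 members in the RefSeq table (GRCm38.p6), 3 had such a start (6.82%), against 813 of all 27025 starts (3.01%) and 14 of 65 starts of cytosolic ribosomal protein genes (21.5%). The coding members with it are shown to let a reader see the run. The first 20 bases follow, with the pyrimidine run in capitals, for Eif3f (chr7:108934415-108934434, plus strand) and Eif2s3x (chrX:94212632-94212651, minus strand):
Eif3f: CTCTCTTTCTCggcaagatg
Eif2s3x: CTTTTCTCTCCgagcaagat
The third was the unexpressed Eif2c5. Annotated starts can differ from those used in oocytes, so the shares above do not tell how many genes make TOP mRNAs. Eif3f differed by −4.80 at 12m and −4.77 at 6wk in IVM-MII minus GV oocytes, and Eif2s3x by −0.57 and −2.23.

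For the polyadenylation element, the words TTTTAT and TTTTAAT were searched on the transcript strand in the last 100 bases of 1 GENCODE transcript per gene with a 3′ UTR of at least 100 bases. They were found in 2081 of 10382 tested genes (20.04%). By class of IVM-MII minus GV at 12m, 14.4% of lower, 21.8% of neither and 28.7% of higher genes held a word, and at 6wk 12.8%, 22.03% and 30.7%. Of 50 members only 4 did (8%), Eif1a, Eif1ax, Eif3j2 and Eif4e3. The sites of Eif1ax and Eif4e3, whose levels exceeded those of the others and differed in opposite directions, are shown, with the word in capitals (Eif1ax at chrX:159389889-159389914, plus strand, and Eif4e3 at chr6:99625217-99625234, minus strand, both GRCm38):
Eif1ax: tcagtggatgTTTTATgctgcacaaa
Eif4e3: aaTTTTATttttgaactt
After the word, 24 bases follow to the annotated end in Eif1ax and 92 bases in Eif4e3. The hexamer that signals polyadenylation was found in this window for Eif4e3 but not for Eif1ax. Whether the annotated end of Eif1ax is the one used was not tested. Eif1ax was lower in IVM-MII oocytes, by −3.72 at 12m and −3.05 at 6wk, and Eif4e3 higher, by 1.10 and 1.04. None of the other 7 members that were higher at 12m held a word in this window. A match is only a run of letters, and a missing match says nothing of the element elsewhere in the mRNA.

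At the cap, the eIF4E family split. Eif4e2 (4EHP), which binds the cap without eIF4G and is known for repression, was at 3.57, 2.22 and 4.16 CPM in MSC-IVM-MII-12m and 2.18, 3.21 and 17.6 CPM in IVM-MII-12m oocytes, against 179, 111 and 70.7 CPM in GV-12m oocytes. Among 6wk oocytes Eif4e2 had 3.17, 1.67 and 7.25 CPM in MSC-IVM-MII and 0, 1.55 and 9.71 CPM in IVM-MII oocytes, against 93.01, 56.2 and 115 CPM in GV oocytes. Every metaphase II oocyte lay below every GV oocyte, and IVM-MII minus GV was −4.17 at 12m and −4.83 at 6wk. Eif4e1b, a form of eIF4E made mainly in oocytes (ENSMUSG00000074895, chromosome 13, 54783998 to 54788459, plus strand), went the other way. It was at 138, 32.8 and 146 CPM in MSC-IVM-MII-12m and 99.0, 288 and 189 CPM in IVM-MII-12m oocytes, against 83.8, 37.3 and 21.5 CPM in GV-12m oocytes. The IVM-MII-12m oocytes were all above GV-12m, by 2.08. At 6wk the Y01 oocytes were low, with 35.3 CPM in MSC-IVM-MII and 16.2 CPM in IVM-MII, while the others had 107 to 179 CPM and GV oocytes 30.5 to 35.3 CPM. Its difference at 6wk, 1.04 for IVM-MII minus GV, was 2.05 without the Y01 oocyte.

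Eif4e3, another cap-binding relative, averaged 1014 ± 357 CPM in MSC-IVM-MII-12m, 1056 ± 196 CPM in IVM-MII-12m and 536 ± 268 CPM in GV-12m oocytes. At 6wk it averaged 1202 ± 399.5 CPM in MSC-IVM-MII, 803 ± 495 CPM in IVM-MII and 387 ± 215 CPM in GV oocytes, where IVM-MII and GV overlapped. Its counts were fractional in all 18 libraries, as happens when reads are shared with another gene. Eif4e itself, the main cap-binding protein, was not past the limit at either age (−0.11 and −0.68): 361 ± 326, 379 ± 197 and 375 ± 71.0 CPM in MSC-IVM-MII-12m, IVM-MII-12m and GV-12m oocytes. As a family the 4 genes summed to 846 ± 231, 872 ± 206 and 566 ± 86.6 TPM in MSC-IVM-MII-12m, IVM-MII-12m and GV-12m oocytes, and to 1061 ± 233, 807 ± 162 and 772 ± 287 TPM in MSC-IVM-MII-6wk, IVM-MII-6wk and GV-6wk oocytes.

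Of the proteins that hold eIF4E back, Eif4enif1 (4E-T), known for keeping stored oocyte mRNAs silent, averaged 71.5 ± 26.9, 83.6 ± 26.5 and 86.9 ± 41.5 CPM in MSC-IVM-MII-12m, IVM-MII-12m and GV-12m oocytes, with a difference of 0.04 for IVM-MII minus GV. Eif4ebp1, the best-known 4E-binding protein and a target of mTOR, was at 6.54, 15.6 and 12.95 CPM in IVM-MII-12m and 6.91, 9.81 and 63.5 CPM in GV-12m oocytes. The highest value was that of GV-12m oocyte 3, the one with the high sum of granulosa markers, whose part in it was not tested. Eif4ebp2 stayed at or below 4.01 CPM in every oocyte.

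The scaffold genes were weakly expressed and uneven. Eif4g1, the main scaffold, was at 44.4, 26.7 and 43.5 CPM in MSC-IVM-MII-6wk and 37.4, 9.32 and 16.8 CPM in IVM-MII-6wk oocytes, against 2.69, 23.1 and 2.48 CPM in GV-6wk oocytes. That put it 2.5 and 1.504 above GV at 6wk, with overlap for IVM-MII, while IVM-MII minus GV at 12m was 0.14. Eif4g2 (DAP5), a scaffold that lacks the eIF4E-binding part, was at 41.9, 47.3 and 23.0 CPM in MSC-IVM-MII-12m and 47.1, 0 and 4.46 CPM in IVM-MII-12m oocytes, against 17.8, 55.3 and 179.8 CPM in GV-12m oocytes. IVM-MII minus GV was −3.17 at 12m and 1.18 at 6wk, and the groups overlapped at both ages. The difference between the ages was not tested. At 12m its highest value was again GV-12m oocyte 3, and leaving out 1 oocyte at a time gave −4.63 (without IVM-MII-12m oocyte 1) to −1.83 (without IVM-MII-12m oocyte 2). At 6wk it was 0.56 without GV-6wk oocyte 3. Eif4g3 overlapped between IVM-MII and GV oocytes at both ages.

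Of the helicases, Eif4a1 and Eif4a2, which unwind the 5′ end for scanning, leaned higher in metaphase II oocytes without reaching the limit in IVM-MII (0.77 and 0.91 at 12m, 0.95 and 0.68 at 6wk). Eif4a3, which despite its name serves the exon junction complex that marks spliced mRNAs, was lower. It averaged 68.8 ± 17.4, 57.0 ± 45.9 and 391 ± 127 CPM in MSC-IVM-MII-12m, IVM-MII-12m and GV-12m oocytes, and 99.2 ± 31.3, 79.4 ± 25.9 and 392 ± 84.4 CPM in MSC-IVM-MII-6wk, IVM-MII-6wk and GV-6wk oocytes. The helicase helpers were lower too. Eif4b was at 19.02, 12.6 and 51.6 CPM in IVM-MII-12m against 59.0, 90.9 and 113 CPM in GV-12m oocytes, a difference of −1.82, and at 6wk the difference was −3.68. Eif4h was at 0.242, 8.22 and 0 CPM in IVM-MII-12m against 18.5, 22.4 and 82.0 CPM in GV-12m oocytes. No IVM-MII-6wk oocyte had a count of Eif4h, while GV-6wk oocytes held 376 counts in all. With 0 set to 3 counts in each library, it was at least 40.3-fold lower in IVM-MII-6wk oocytes. MSC-IVM-MII-6wk oocytes held 1.48, 4.01 and 0 CPM of it.

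eIF3, the largest factor, bridges the small subunit and the mRNA, and its genes made up the largest block of lower members. Of its 14 genes 10 were lower by the limit and 1 higher in IVM-MII-12m against GV-12m, and 9 lower and 3 higher in IVM-MII-6wk against GV-6wk. Of all genes 39% were lower and 16.1% higher at 12m, and 39.3% and 16.7% at 6wk. The oocytes did not overlap for 8 of the lower and 1 of the higher eIF3 genes at 12m and for 7 and 3 at 6wk. Of all genes, 25.5% were lower and 10% higher without overlap at 12m, and 28.3% and 8.34% at 6wk. Summed over the 14 genes, eIF3 mRNA was 888 ± 28.1 TPM in MSC-IVM-MII-12m and 839 ± 77.9 TPM in IVM-MII-12m oocytes, against 2273 ± 87.3 TPM in GV-12m oocytes. The 6wk sums were 963 ± 104.6 TPM in MSC-IVM-MII and 1024 ± 160 TPM in IVM-MII oocytes, against 2060 ± 235 TPM in GV oocytes. At both ages all metaphase II oocytes lay below all GV oocytes.

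The steepest difference among all members at 12m, and the next after Eif3l at 6wk, was that of Eif3g, an RNA-binding subunit that helps scanning (ENSMUSG00000070319, chromosome 9, 20894349 to 20898623, minus strand). It was at 8.92, 0.278 and 8.51 CPM in MSC-IVM-MII-12m and 0.242, 12.0 and 2.97 CPM in IVM-MII-12m oocytes, against 867, 452 and 250.3 CPM in GV-12m oocytes. Eif3g had 8.45, 4.35 and 0 CPM in MSC-IVM-MII-6wk and 0.901, 17.7 and 4.85 CPM in IVM-MII-6wk oocytes, against 421, 229 and 553 CPM in GV-6wk oocytes. No metaphase II oocyte exceeded 17.7 CPM and no GV oocyte was under 229 CPM. The 3 IVM-MII-12m oocytes together had 76 counts (exact Poisson 95% interval 59.9 to 95.1) and the GV-12m oocytes 9137 counts, and IVM-MII minus GV was −6.85 at 12m and −5.99 at 6wk.

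Most of the structural core of eIF3, subunits a, c, e, f, h, k, l and m, was lower as well. Eif3m was at 8.48, 24.8 and 20.6 CPM in IVM-MII-12m against 581, 471 and 215 CPM in GV-12m oocytes, and at 14.2, 7.76 and 5.42 CPM in IVM-MII-6wk against 415, 223 and 454 CPM in GV-6wk oocytes. Eif3l was at 2.03, 13.98 and 0 CPM in IVM-MII-6wk oocytes, against 261, 223 and 269 CPM in GV-6wk oocytes, a difference of −6.14, and −4.51 at 12m. For both subunits no metaphase II oocyte reached the lowest GV oocyte. Eif3f, the subunit with the TOP-like start shown above, was at 0, 0.601 and 5.31 CPM in IVM-MII-12m against 70.6, 44.1 and 65.9 CPM in GV-12m oocytes. In MSC-IVM-MII-12m oocytes it had 2 counts in all (exact Poisson 95% interval 0.242 to 7.22). Eif3k differed by −2.79 at 12m and −3.61 at 6wk, Eif3h by −2.76 and −3.09, and outside the core Eif3d, which can bind the cap of some mRNAs, by −2.59 and −2.71. In IVM-MII minus GV, Eif3a and Eif3c were past the limit at both ages with oocytes that overlapped at 6wk, and Eif3a also at 12m. For Eif3a the difference was −0.15 at 12m without GV-12m oocyte 3 and −0.28 at 6wk without IVM-MII-6wk oocyte 2, and for Eif3c −0.43 at 6wk without IVM-MII-6wk oocyte 3. Per length, Eif3c averaged 27.6 ± 8.30 TPM in IVM-MII-12m against 47.1 ± 15.7 TPM in GV-12m oocytes. At 6wk its mean was not lower, with 64.7 ± 104 TPM in IVM-MII against 39.9 ± 20.3 TPM in GV oocytes. IVM-MII-6wk oocyte 1 set that mean at 185 TPM, with 6.83 and 2.35 TPM in the others. Eif3b was past the limit in IVM-MII minus GV at 12m alone, where GV-12m oocyte 3 had 65.7 CPM and the other GV-12m oocytes 5.12 and 16.6 CPM. Without GV-12m oocyte 3 its difference was −1.70. In MSC-IVM-MII minus GV at 6wk Eif3b was also past the limit, at −1.81 with overlap.

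A few eIF3 genes did not share this. Eif3i, a small propeller-shaped subunit, was the most abundant eIF3 mRNA of metaphase II oocytes, with 452, 370.2 and 359 CPM in MSC-IVM-MII-12m and 532, 463 and 525 CPM in IVM-MII-12m oocytes, against 558, 289 and 195 CPM in GV-12m oocytes. These overlapped, with an IVM-MII minus GV difference of 0.68. In MSC-IVM-MII-6wk oocytes Eif3i had 273, 602 and 486 CPM and in IVM-MII-6wk oocytes 363, 502.2 and 494 CPM, against 201, 127 and 262 CPM in GV-6wk oocytes. Here there was no overlap, and IVM-MII minus GV was 1.25. Per length, Eif3i stood at 540 TPM and Eif3g at 4.97 TPM in IVM-MII-12m oocytes, against 338 TPM and 496 TPM in GV-12m oocytes. Eif3e, the one core subunit not lower, averaged 149 ± 98.2 CPM in IVM-MII-12m and 157 ± 16.2 CPM in GV-12m oocytes, and 328 ± 23.7 CPM in IVM-MII-6wk and 164 ± 36.1 CPM in GV-6wk oocytes, a difference of 1.01 without overlap. Eif3j1, of the loosely bound subunit j, was at 90.0, 87.8 and 33.5 CPM in IVM-MII-12m against 13.1, 25.9 and 32.4 CPM in GV-12m oocytes, a difference of 1.49, and 1.87 at 6wk. Eif3j2 is a near-identical copy. Both had fractional counts in all 18 libraries, so how reads were split between them is uncertain.

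**Figure D2:**
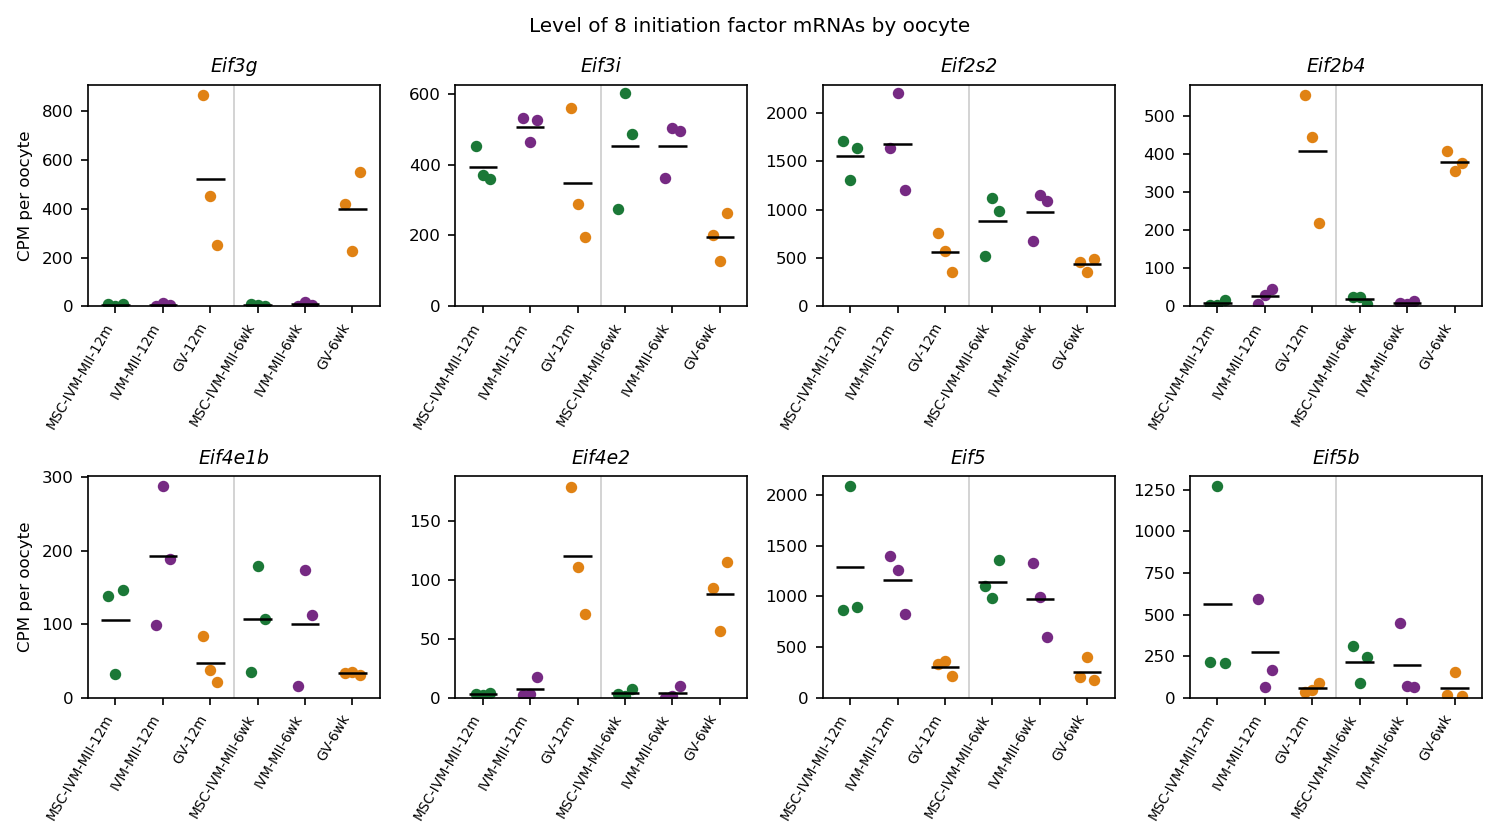
CPM of 8 members in each oocyte, by group; points are oocytes, bars the group mean of 3, and a grey line divides 12m from 6wk. Eif3g, Eif2b4 and Eif4e2 are at 44.2 CPM or less in all metaphase II oocytes and at 56.2 CPM or more in all GV oocytes, while Eif5 lies between 596 and 2094 CPM in metaphase II and between 172 and 398 CPM in GV oocytes.

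The factors that select the start codon were mixed. Eif1b, a close relative of eIF1, was the most abundant member per length over all oocytes and overlapped between groups, with 724 ± 649.7 CPM in IVM-MII-12m and 982 ± 695 CPM in GV-12m oocytes. It was at 66.0 CPM in the Y01 oocyte of IVM-MII-6wk and at 116 CPM in that of MSC-IVM-MII-6wk, below all other oocytes. Eif1 itself was higher in IVM-MII oocytes by 0.87 at 12m and 0.96 at 6wk, short of the limit. Eif1ax, the X-linked gene of eIF1A, was at 47.0, 128 and 50.5 CPM in IVM-MII-12m against 1557, 977 and 483 CPM in GV-12m oocytes, and at 32.0, 148 and 110.2 CPM in IVM-MII-6wk against 785, 417 and 944 CPM in GV-6wk oocytes. No metaphase II oocyte overlapped the GV range. The effective length in the deposited files of Eif1ax, an average over its transcripts weighted by their estimated share, was also shorter, 2001 bases in IVM-MII-12m against 4207 bases in GV-12m and 1331 bases in IVM-MII-6wk against 3716 bases in GV-6wk oocytes. In TPM, which divides by that length, Eif1ax was at 37.1 in IVM-MII-12m and 187 in GV-12m oocytes, a smaller gap than in CPM. Its autosomal relative Eif1a and the eIF1A-like Eif1ad were past the limit downwards at both ages, at no more than 38.2 CPM and 36.5 CPM in any oocyte. For Eif1a at 12m this rested on GV-12m oocyte 3, without which the difference was 0.02.

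eIF2 carries the initiator tRNA. Eif2s2, its beta subunit (ENSMUSG00000074656, chromosome 2, 154871410 to 154892935, minus strand), was higher at metaphase II. It was at 1708, 1303 and 1640.2 CPM in MSC-IVM-MII-12m and 1633, 2202 and 1203 CPM in IVM-MII-12m oocytes, against 756, 570.3 and 349.9 CPM in GV-12m oocytes. Its 6wk values were 523, 1125 and 986 CPM in MSC-IVM-MII and 680.1, 1152 and 1091 CPM in IVM-MII oocytes, against 454, 355 and 488 CPM in GV oocytes. All metaphase II oocytes were above all GV oocytes of their age, and IVM-MII minus GV was 1.61 at 12m and 1.15 at 6wk. Eif2s1, the alpha subunit that the stress kinases phosphorylate, overlapped between IVM-MII and GV oocytes at both ages (0.45 and 0.63). In MSC-IVM-MII-12m oocytes Eif2s1 was above all GV-12m oocytes, by 0.85, short of the limit. It stood at 54.1 CPM in the Y01 oocyte of MSC-IVM-MII-6wk and 67.4 CPM in that of IVM-MII-6wk, while the other 4 of these groups had 509.7 to 708 CPM. Eif2s3x, the X-linked gamma subunit, was weak, at 0 to 36.6 CPM. Its sequence is close to that of other copies, and its counts were fractional in 10 libraries. Summed, eIF2 mRNA was 792 ± 112 and 722 ± 138 TPM in MSC-IVM-MII-12m and IVM-MII-12m oocytes against 253 ± 25.4 TPM in GV-12m oocytes, and 519 ± 161 and 579 ± 129 TPM in MSC-IVM-MII-6wk and IVM-MII-6wk oocytes against 245 ± 17.1 TPM in GV-6wk oocytes.

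The exchange factor eIF2B was split within one complex. Eif2b1, the regulatory alpha subunit, was at 1463, 1487 and 1473 CPM in MSC-IVM-MII-12m and 2536, 2051 and 2407 CPM in IVM-MII-12m oocytes, against 1272, 1255 and 511 CPM in GV-12m oocytes. The 6wk oocytes had 2068, 2786 and 2708 CPM in MSC-IVM-MII and 1982, 1701 and 2457 CPM in IVM-MII oocytes, against 1309, 786 and 1048 CPM in GV oocytes. It was above GV in every metaphase II oocyte of its age. Eif2b4, the delta subunit (ENSMUSG00000029145, chromosome 5, 31187558 to 31193430, minus strand), was at 2.23, 4.17 and 15.4 CPM in MSC-IVM-MII-12m and 5.45, 29.9 and 44.2 CPM in IVM-MII-12m oocytes, against 554, 445 and 219.5 CPM in GV-12m oocytes. Eif2b4 had 24.1, 24.7 and 5.87 CPM in MSC-IVM-MII-6wk and 7.66, 6.21 and 14.3 CPM in IVM-MII-6wk oocytes, against 408, 356 and 375 CPM in GV-6wk oocytes. No metaphase II oocyte came above 44.2 CPM. IVM-MII minus GV was −4.19 and −5.27. Eif2b2, the beta subunit, followed it (−3.18 and −3.49), Eif2b3, the gamma subunit, was not past the limit (−0.50 and −0.11), and Eif2b5, the catalytic epsilon subunit, reached at most 15.3 CPM (−1.62 and −0.20). Eif2b1 was the most abundant of them per length, and the means of summed eIF2B mRNA were not lower at metaphase II: 932 ± 27.4, 1251 ± 267 and 866 ± 115 TPM in MSC-IVM-MII-12m, IVM-MII-12m and GV-12m oocytes, and 1659 ± 53.8, 1396 ± 275 and 1021 ± 199 TPM in MSC-IVM-MII-6wk, IVM-MII-6wk and GV-6wk oocytes.

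Of the eIF2 kinases, Eif2ak3 (PERK, the sensor of endoplasmic reticulum stress) was higher at metaphase II at a low level. It was at 12.0, 13.2 and 13.1 CPM in MSC-IVM-MII-12m and 14.7, 9.62 and 22.3 CPM in IVM-MII-12m oocytes, against 2.67, 3.65 and 5.76 CPM in GV-12m oocytes. The like values at 6wk were 12.5, 7.02 and 10.4 CPM in MSC-IVM-MII and 13.3, 17.4 and 9.42 CPM in IVM-MII oocytes, against 2.69, 2.43 and 1.77 CPM in GV oocytes. The groups did not overlap at either age, and IVM-MII minus GV was 1.69 and 2.095. Its effective length was shorter in IVM-MII oocytes, at 723 bases against 1169 bases in GV-12m and 700 against 912 bases in GV-6wk oocytes. Which transcripts of the gene the counts came from was not tested. Eif2ak1 (HRI), Eif2ak2 (PKR) and Eif2ak4 (GCN2) were within the limit in IVM-MII minus GV. Eif2ak1 was highest in the Y01 oocytes, at 132 CPM in IVM-MII-6wk and 94.4 CPM in MSC-IVM-MII-6wk, and its counts were fractional in all 18 libraries.

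The factors of the last steps were among the clearest. Eif5, which triggers GTP hydrolysis on eIF2 (chromosome 12 in GRCm38), was at 866, 2094 and 901 CPM in MSC-IVM-MII-12m and 1400.1, 1262 and 829 CPM in IVM-MII-12m oocytes, against 337, 361 and 218 CPM in GV-12m oocytes. Eif5 had 1100.3, 981 and 1358 CPM in MSC-IVM-MII-6wk and 1332, 994 and 596 CPM in IVM-MII-6wk oocytes, against 203, 398 and 172 CPM in GV-6wk oocytes. All metaphase II oocytes were above all GV oocytes, and IVM-MII minus GV was 1.92 at 12m and 1.94 at 6wk. Eif5b, which joins the subunits, was higher by 1.81 and 2.11, but with wide spread: 593, 63.3 and 166 CPM in IVM-MII-12m against 35.2, 45.1 and 87.1 CPM in GV-12m oocytes, and 448, 68.0 and 66.8 CPM in IVM-MII-6wk against 14.5, 157 and 9.58 CPM in GV-6wk oocytes. At both ages the groups overlapped, and leaving out IVM-MII oocyte 1 gave 0.97 at 12m and 1.21 at 6wk. Eif6, which keeps the subunits apart, ran opposite to both. It was at 73.2, 51.2 and 183 CPM in MSC-IVM-MII-12m and 137, 232 and 88.7 CPM in IVM-MII-12m oocytes, against 1087, 755 and 401 CPM in GV-12m oocytes. Among 6wk oocytes Eif6 had 33.0, 192 and 209.6 CPM in MSC-IVM-MII and 6.99, 201 and 171 CPM in IVM-MII, against 645, 497 and 723 CPM in GV. The Y01 oocytes were lowest, and no metaphase II oocyte reached a GV oocyte. The summed TPM of Eif5 and Eif5b was 628 ± 394 and 472 ± 116 in MSC-IVM-MII-12m and IVM-MII-12m oocytes, against 114 ± 23.8 in GV-12m oocytes. That of Eif6 was 89.6 ± 68.9 and 114 ± 42.4, against 509 ± 32.0.

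Eif5a, a factor that frees stalled ribosomes during elongation and carries the modified residue hypusine, averaged 1059.7 ± 144 CPM in MSC-IVM-MII-12m, 1237 ± 418 CPM in IVM-MII-12m and 701 ± 202 CPM in GV-12m oocytes, and its differences of 0.81 at 12m and 0.32 at 6wk for IVM-MII minus GV were within the limit. Its relative Eif5a2 stayed at or below 8.92 CPM. Eif2d, which can deliver tRNA without eIF2, was at 11.5, 0.2 and 9.13 CPM in IVM-MII-12m against 95.6, 59.0 and 63.5 CPM in GV-12m oocytes, and at 6.08, 31.1 and 45.7 CPM in IVM-MII-6wk against 62.9, 79.5 and 91.9 CPM in GV-6wk oocytes. Eif2a, a factor unrelated to the eIF2 subunits in spite of its name, was lower by −1.40 and −1.49 at levels of at most 17.5 CPM.

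**Figure D3:**
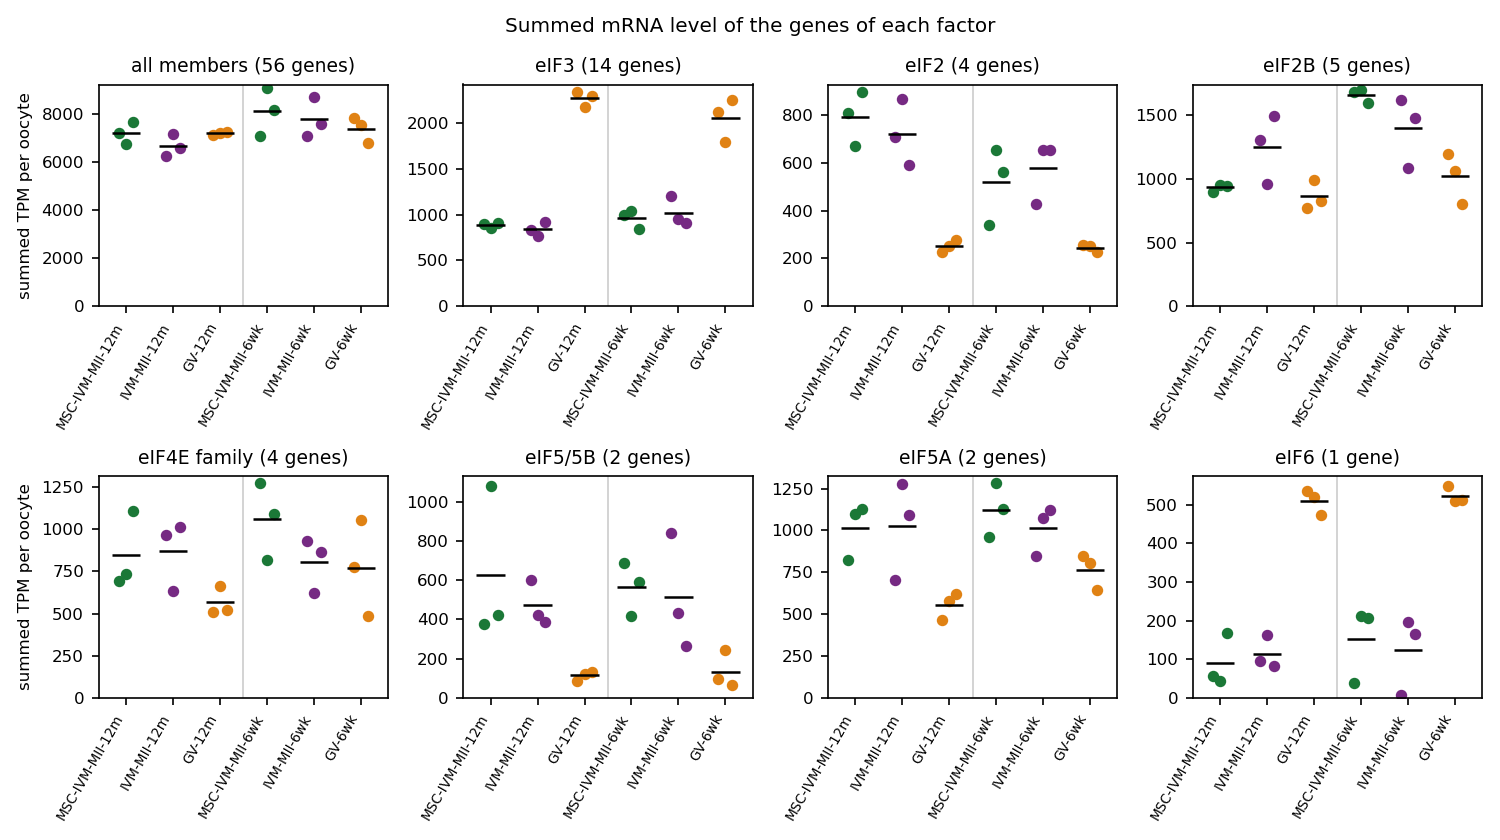
Summed TPM of the genes of all members and of 7 factors in each oocyte, by group; points are oocytes and bars the group mean of 3. The sum over all members is alike between groups, while eIF3 and eIF6 are lower and eIF2 and eIF5/5B higher in metaphase II than in GV oocytes at both ages.

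Related lists gave these counts in IVM-MII minus GV, beside the percentages of all genes given above. Of 15 elongation and termination factor genes, 9 were lower and 0 higher at 12m (median −1.55) and 8 and 0 at 6wk (median −1.15). Eef1d, a nucleotide exchange subunit of elongation factor 1, was at 23.7 ± 3.21 CPM in IVM-MII-12m against 625 ± 328 CPM in GV-12m oocytes, and the hypusine enzyme Dhps at 0.0668 ± 0.116 against 25.6 ± 9.70 CPM. Dohh, the next enzyme of that pathway, was at 0 in IVM-MII-6wk and at 38.9 ± 11.2 CPM in GV-6wk oocytes. Of 25 tested regulators of initiation, 11 were lower and 6 higher at 12m (median −0.65), and 8 and 3 at 6wk (median −0.34). Lower among them were Paip2, an inhibitor of poly(A)-binding protein (92.4 ± 51.6 CPM in IVM-MII-12m against 1084 ± 497 CPM in GV-12m), and Pabpc1l, the poly(A)-binding protein of oocytes (2.82 ± 2.49 CPM in IVM-MII-6wk against 88.0 ± 22.1 CPM in GV-6wk). Pabpc1 was at 1.62 ± 2.59 CPM in IVM-MII-12m against 56.5 ± 78.1 CPM in GV-12m oocytes. Of 84 tested cytosolic ribosomal protein genes, 78 were lower and 1 higher at 12m (median −3.87), and 77 and 1 at 6wk (median −4.00). Rps27a was at 1.55 ± 1.80 CPM in IVM-MII-12m against 467 ± 200.1 CPM in GV-12m oocytes and Rpl39 at 1.30 ± 1.59 CPM in IVM-MII-6wk against 196 ± 76.7 CPM in GV-6wk oocytes. The difference between these lists was not tested.

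Neither transcript length nor level ordered the members strongly. Across the 53 members, IVM-MII minus GV had a Spearman's rho of 0.18 at 12m and 0.21 at 6wk with effective length, against 0.19 and 0.27 across all genes. With mean level it was 0.30 and 0.22, against 0.18 and 0.08 across all genes. Members share the libraries and no p is given.

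**Figure D4:**
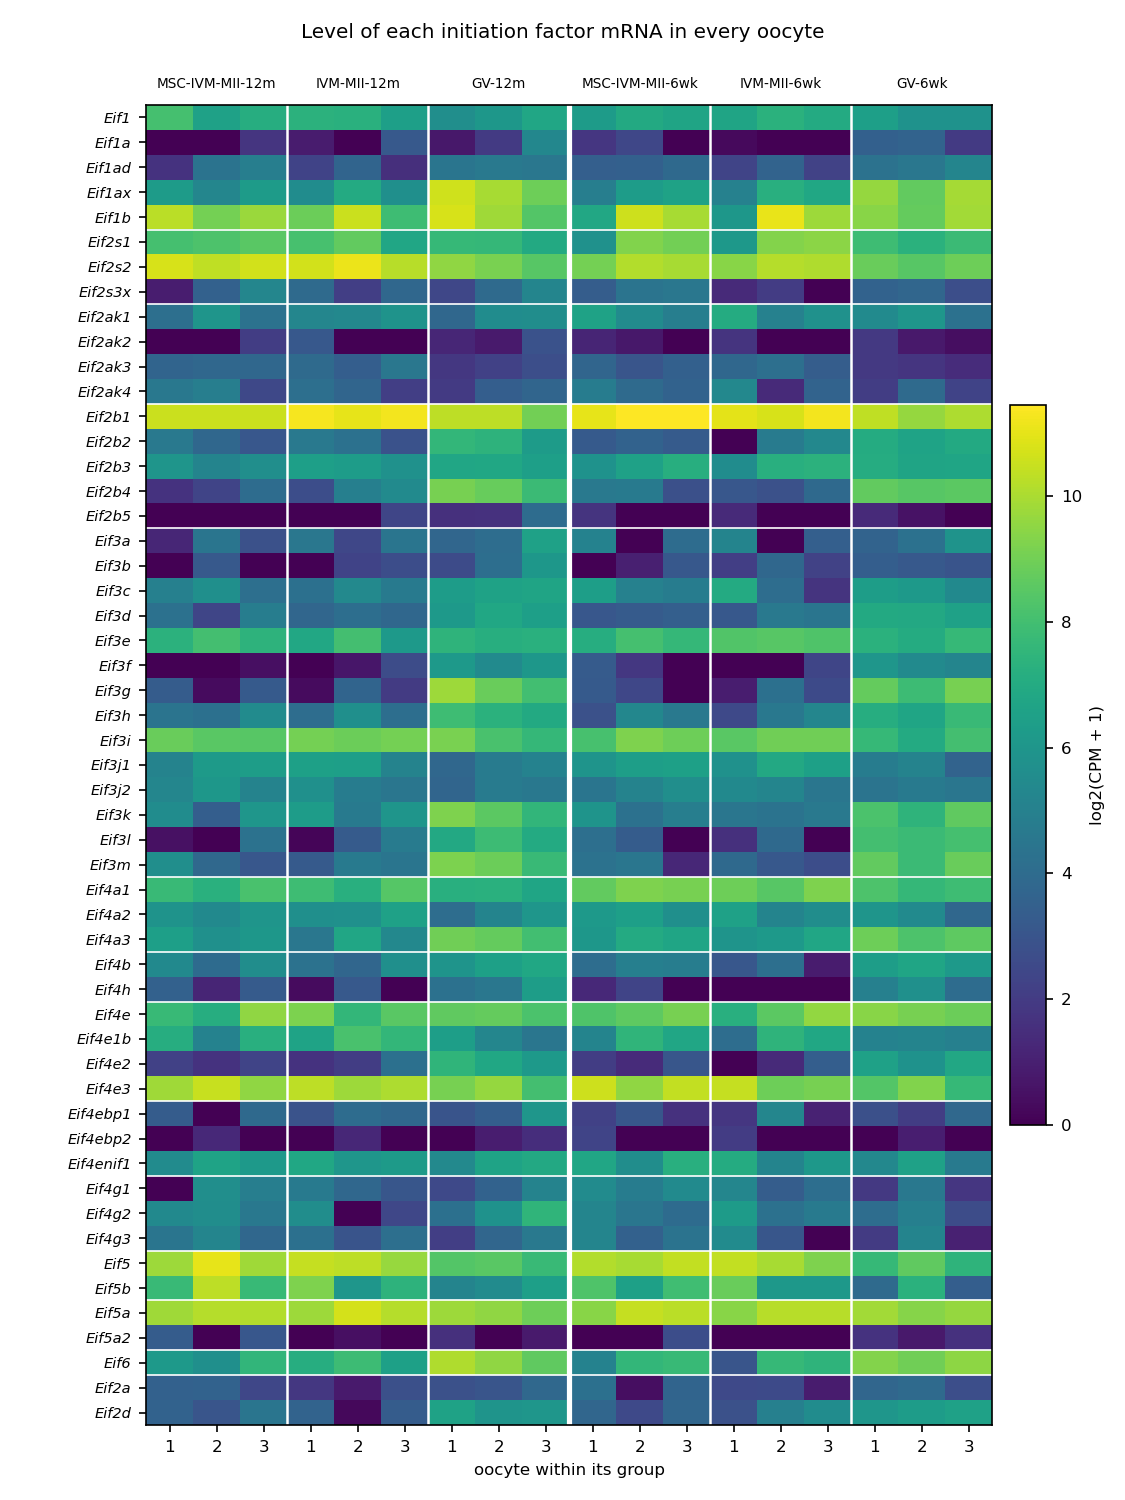
Level of each of the 53 members in every oocyte as log2(CPM + 1); columns are oocytes by group and white lines separate factors. Eif2b1, Eif5a and Eif5 are bright in all metaphase II oocytes, while Eif3f, Eif3g, Eif3l and Eif4h are each darker there than in any GV oocyte. In 6wk metaphase II oocyte 1 of both groups Eif1b and Eif2s1 are darker than in the other 4.

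Age was compared within each kind of oocyte, with the reservation on prefixes given above. In GV oocytes 4 members were higher at 12m and 0 lower, against 9.46% and 4.28% of all genes, and the median was 0.22 for members and 0.12 for all genes. Without overlap were 1 and 0 of them, against 2.48% and 1.84%. The higher members were Eif4g2 (1.95), Eif2b5 (1.77), Eif4ebp1 (1.24) and Eif3b (1.08). Each was highest in GV-12m oocyte 3, whose high sum of granulosa markers was not tested for its part in these values. Without that oocyte Eif4g2 was still higher at 1.13, Eif4ebp1 was at 0.31 and Eif3b at 0.18, and 2 members were higher and 1 lower, beside 7.65% and 7.16% of all genes. Eif2b5, the one without overlap, was at 2.005, 2.14 and 15.3 CPM in GV-12m against 1.61, 0.486 and 0 CPM in GV-6wk oocytes, and at 0.97 without GV-12m oocyte 3. It falls outside the rule for named genes and was chosen after its values were seen.

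In IVM-MII oocytes 9 members were higher and 5 lower at 12m, against 18.1% and 9.08% of all genes, with medians of 0.24 and 0.16. Without overlap were 2 and 2 of them, against 5.08% and 1.74%. Lower at 12m without overlap were Eif3e, at 117, 259 and 70.5 CPM in IVM-MII-12m against 321, 354 and 308 CPM in IVM-MII-6wk oocytes, and Eif4a1, at 234, 147 and 346 CPM against 480.4, 351 and 595 CPM. Eif4g2 (−2.40) and Eif2d (−2.04) were lower with overlap, and without IVM-MII-12m oocyte 2 they were at −1.06 and −0.96. Higher without overlap were Eif2s3x, at 14.3, 3.41 and 12.95 CPM in IVM-MII-12m against 1.58, 3.11 and 0 CPM in IVM-MII-6wk oocytes, which was named after its values were seen, and Eif3k, at 80.4, 24.4 and 60.7 CPM in IVM-MII-12m against 21.4, 19.6 and 24.0 CPM in IVM-MII-6wk oocytes. In TPM the oocytes overlapped for Eif4a1, Eif2s3x and Eif3k, but not for Eif3e. Eif4b (1.87) and Eif4e1b (1.34) were higher with overlap, but Eif4b was at 0.94 without IVM-MII-6wk oocyte 3 and Eif4e1b at 0.33 without the Y01 oocyte. With the Y01 oocyte left out, 12 members were higher and 9 lower, beside 25.4% and 11.1% of all genes.

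In MSC-IVM-MII oocytes 3 members were higher and 4 lower at 12m, against 7.73% and 15.2% of all genes, with medians of −0.01 and −0.12. Without overlap were 0 and 1 of them, against 1.89% and 3.81%. With the Y01 oocyte left out, 5 were higher and 7 lower, beside 13.7% and 15.3% of all genes. Eif4a1 was lower without overlap, at 214, 155 and 287 CPM in MSC-IVM-MII-12m against 411, 600.0 and 546 CPM in MSC-IVM-MII-6wk oocytes (−1.27). In GV oocytes it was at 148, 154 and 103.5 CPM at 12m and 300.8, 193 and 238 CPM at 6wk, a difference of −0.84. So in CPM all 9 oocytes of 12m were below the 6wk oocytes of their kind for this helicase gene, with −1.02 in IVM-MII oocytes. The closest were IVM-MII-12m oocyte 3 at 346 CPM and IVM-MII-6wk oocyte 2 at 351 CPM. In TPM these 2 overlapped, at 286 and 249. This pattern over the 3 kinds was picked after the values were seen, and mice, prefix and age cannot be told apart in it. Eif4g1 was lower by −1.74, a value set by MSC-IVM-MII-12m oocyte 1 with 0 CPM: without it the difference was 0.02. Eif5b was higher by 1.02, and by 0.16 without MSC-IVM-MII-12m oocyte 2, which had 1269.9 CPM.

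Co-culture was compared with maturation without it at each age. At 12m 7 members were higher and 3 lower in MSC-IVM-MII than in IVM-MII oocytes, against 10.3% and 15.2% of all genes, with medians of −0.10 for both. The oocytes of the groups overlapped for all 10, while 1.99% of all genes were higher and 2.9% lower without overlap. Within shared prefixes 7 were higher and 9 lower, beside 9.97% and 19.01% of all genes, with medians of −0.09 and −0.14. Eif4g2 was at 41.9, 47.3 and 23.0 CPM in MSC-IVM-MII-12m against 47.1, 0 and 4.46 CPM in IVM-MII-12m oocytes (2.52, and 1.18 without IVM-MII-12m oocyte 2). Eif5b was at 213, 1269.9 and 211 CPM against 593, 63.3 and 166 CPM (1.06, and 0.20 without MSC-IVM-MII-12m oocyte 2). Eif2b4 was lower, at 2.23, 4.17 and 15.4 CPM against 5.45, 29.9 and 44.2 CPM (−1.68). Eif2b1 and Eif3i were lower without overlap but within the limit (−0.65 and −0.37). Eif2b1 was at 1463 to 1487 CPM in MSC-IVM-MII-12m and 2051 to 2536 CPM in IVM-MII-12m oocytes, a value picked after it was seen.

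At 6wk 6 members were higher and 2 lower in MSC-IVM-MII than in IVM-MII oocytes, against 16.2% and 5.22% of all genes, with medians of 0.16 and 0.20. Of all genes 3.05% were higher and 0.881% lower without overlap. Within shared prefixes 9 members were higher and 1 lower, beside 15.1% and 4.0% of all genes, with medians of 0.18 and 0.20. Without both Y01 oocytes 10 were higher and 4 lower, beside 22.5% and 10.9% of all genes. The only one of the 8 without overlap was Eif2s3x, at 9.51, 20.1 and 22.4 CPM in MSC-IVM-MII-6wk against 1.58, 3.11 and 0 CPM in IVM-MII-6wk oocytes (2.98). Its shared reads make this value uncertain. It was singled out after the values were seen. Eif4b was at 16.1, 30.1 and 28.0 CPM in MSC-IVM-MII-6wk against 7.66, 17.4 and 0.856 CPM in IVM-MII-6wk oocytes (1.90, and 0.98 without IVM-MII-6wk oocyte 3). Eif4g3 (1.499) and Eif3c (1.14) were past the limit through IVM-MII-6wk oocyte 3, and without it they were at 0.06 and −0.14. Eif2d was past the limit in opposite directions, with −1.10 at 6wk and 1.27 at 12m. Without IVM-MII-6wk oocyte 3 the 6wk value was −0.56, and without IVM-MII-12m oocyte 2 the 12m value was 0.19. The groups overlapped at both ages, and the difference between the ages was not tested. The members higher at 12m and at 6wk with co-culture had Eif4h in common, at 6.89 ± 4.99 CPM in MSC-IVM-MII-12m against 2.82 ± 4.67 CPM in IVM-MII-12m and at 1.83 ± 2.03 CPM in MSC-IVM-MII-6wk against 0 in IVM-MII-6wk oocytes, levels of few counts at which the groups overlapped.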

How the data were processed

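Single mouse oocytes were sequenced by SMART-seq2. The deposited tables give, per oocyte and gene, expected counts, length-corrected transcript shares (TPM) and effective length, per the file headers. Builds mm10 and GRCm38.p5 are listed per the submitters' processing notes, with Cufflinks, TopHat2 2.1.1, Trim Galore 0.4.5 and FastQC 0.11.8. The tool behind the expected counts is not given in the sources used here. GENCODE M21 symbols matched 46488 of 47069 IDs.

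Expected counts were rounded, scaled by edgeR 4.0.16 TMM and filtered with filterByExpr by group, which kept 12037 genes. The measure was the difference of group means of log2(CPM + 1), called at a size of 1, with no p-value because labels name no animal. This scale understates folds of low genes. Totals were 1914072 to 9193559 counts, and intervals and floors cover counting error only. Any pair of oocytes of a group differed by far more than sampling noise (chi-square per degree of freedom 27.9 to 216). Genes compared with each other use TPM.

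Named members were the 5 largest differences each way in IVM-MII minus GV at each age and the 3 largest in the 7 other comparisons (at least 20 CPM in the higher group), the member of highest TPM for each factor, and the 2 largest of each other list. Members and lists were chosen with earlier results of these data known. Promoter starts are RefSeq, GRCm38.p6. Alternatives used DESeq2 1.42.0 size factors, library totals, no filter, a pseudocount of 5, TPM, a 4-fold limit, shared prefixes and left-out oocytes. Scripts were tested on simulated data. Tools were Python 3.11.15, NumPy 2.4.6, pandas 2.3.3, SciPy 1.17.1, Matplotlib 3.10.9 and R 4.3.3.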

Additional observations from a re-analysis of the deposited data

How the results depend on the processing

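No paired analysis was possible because the replicate numbers only follow accession order and pair no oocytes. Of the alternatives for named members, 619 values stayed within 1 SD, 8 moved further and 2 changed sign: Eif4g1 in MSC-IVM-MII-12m minus MSC-IVM-MII-6wk (−2.81 to 0.019 with 1 oocyte left out, the highest without MSC-IVM-MII-12m oocyte 1) and Eif3c in MSC-IVM-MII-6wk minus IVM-MII-6wk (−0.14 without IVM-MII-6wk oocyte 3, up to 2.51). For the counts and medians below the cause was not tested, except that a 4-fold limit by construction calls fewer members. Shares of all genes are given above for shared prefixes and without GV-12m oocyte 3 or the Y01 oocytes. For the other settings no such share stands beside the counts, so those counts cannot set the members apart from all genes.

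With DESeq2 size factors the median of IVM-MII-12m minus GV-12m was −0.76, that of MSC-IVM-MII-12m minus IVM-MII-12m 0.017, and 6 members were higher in MSC-IVM-MII-12m minus GV-12m. With library totals the medians of MSC-IVM-MII-12m minus GV-12m and minus IVM-MII-12m were −0.48 and 0.073. Without a filter the median of MSC-IVM-MII-12m minus GV-12m was −0.36. The 6wk medians of IVM-MII minus GV and MSC-IVM-MII minus GV were −0.15 and −0.17 without a filter, −0.13 and −0.14 with a pseudocount of 5, and −0.23 and −0.12 in TPM.

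With a pseudocount of 5 the median of MSC-IVM-MII-12m minus GV-12m was −0.34 with 6 higher members. GV-12m minus GV-6wk then had 1 higher, IVM-MII-12m minus IVM-MII-6wk 4 higher, MSC-IVM-MII-12m minus MSC-IVM-MII-6wk 2 lower and 1 higher, MSC-IVM-MII-12m minus IVM-MII-12m 1 lower and 2 higher, and MSC-IVM-MII-6wk minus IVM-MII-6wk 0 lower and 2 higher.

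In TPM the median of MSC-IVM-MII-12m minus GV-12m was −0.29, that of IVM-MII-12m minus IVM-MII-6wk −0.070 with 2 higher, and that of MSC-IVM-MII-12m minus IVM-MII-12m 0.15 with 1 lower. GV-12m minus GV-6wk had 2 lower, MSC-IVM-MII-12m minus MSC-IVM-MII-6wk 1 higher, and MSC-IVM-MII-6wk minus IVM-MII-6wk 1 lower and 3 higher.

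At a 4-fold limit the higher members numbered 1 in both 12m comparisons with GV, 2 in IVM-MII-6wk minus GV-6wk, 3 in MSC-IVM-MII-6wk minus GV-6wk and 0 in GV-12m minus GV-6wk. Lower and higher numbered 2 and 1 for age in IVM-MII, 0 and 0 for age in MSC-IVM-MII, 0 and 1 for co-culture at 12m and 0 and 1 at 6wk.

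Within title prefixes, where GV-12m oocyte 1 dropped out, the medians of IVM-MII-12m and MSC-IVM-MII-12m minus GV-12m were −1.06 and −1.33. Co-culture within prefixes had 9 lower members at 12m and 1 at 6wk. Without the Y01 metaphase II oocytes, age in IVM-MII had 9 lower, age in MSC-IVM-MII 7 lower and 5 higher, and co-culture at 6wk 4 lower and 10 higher.

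With 1 oocyte left out, IVM-MII-12m minus GV-12m had medians of −0.91 to −0.28, MSC-IVM-MII-12m minus GV-12m −1.11 to −0.24, IVM-MII-6wk minus GV-6wk −0.59 (without GV-6wk oocyte 2) to −0.21 (without IVM-MII-6wk oocyte 3), MSC-IVM-MII-6wk minus GV-6wk −0.47 to −0.038 and MSC-IVM-MII-12m minus IVM-MII-12m −0.22 to 0.0535, with 3 to 12 lower and 4 to 9 higher. GV-12m minus GV-6wk had 0 to 1 lower and 2 to 9 higher, IVM-MII-12m minus IVM-MII-6wk 4 to 9 lower, MSC-IVM-MII-12m minus MSC-IVM-MII-6wk 3 to 8 lower and 2 to 7 higher, and MSC-IVM-MII-6wk minus IVM-MII-6wk 1 to 8 lower and 7 to 12 higher.

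The median of all genes itself moved by more than 0.1 in places: for IVM-MII-12m minus GV-12m by −0.16 with DESeq2, 0.26 with a pseudocount of 5 and 0.17 in TPM, and for IVM-MII-6wk minus GV-6wk by 0.14 without a filter, 0.30 with a pseudocount of 5 and 0.22 in TPM. For MSC-IVM-MII-12m minus GV-12m it moved by 0.32 and 0.29 with a pseudocount of 5 and in TPM, and for MSC-IVM-MII-6wk minus GV-6wk by 0.17 and 0.16, and by −0.13 with DESeq2. In TPM it moved by −0.14 for age in GV and by −0.16 for age in IVM-MII. Depth limits members of a few counts, such as Eif3f and Eif4h in metaphase II oocytes.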
